A study of Mus musculus with 6 samples.

Results

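A set of 10 genes of intracellular calcium handling was followed in cold brown fat: the SERCA pump genes Atp2a1, Atp2a2 and Atp2a3, the small pump regulators Sln and Pln, the ryanodine receptor genes Ryr1 and Ryr2, and the inositol trisphosphate (IP3) receptor genes Itpr1, Itpr2 and Itpr3. They were chosen by symbol, for their roles in the pathway, with earlier results of these data known. All 10 were found among the 54385 genes of the deposited table, and 9 of the 10 passed the filter on low counts, Pln being the exception. Polyadenylated RNA was sequenced from interscapular brown adipose tissue, the heat-producing fat between the shoulder blades, of C57BL/6N mice. The AdKO group held 3 mice of genotype Adcy3-FL/FL with Adipoq-wt/cre, in which Cre made under the adipocyte promoter of Adipoq acts on the floxed Adcy3 alleles. The control group held 3 mice of genotype Adcy3-FL/FL with Adipoq-wt/wt, which carry the same floxed alleles and no Cre. Mice of both groups ate chow for 20 weeks and spent 24 hours at 5 °C before collection, and the series text gives their age as 20 weeks. The Adipoq promoter is active in white as well as brown adipocytes, and other cells of the depot keep Adcy3.

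SERCA pumps use ATP to move calcium from the cytosol into the endoplasmic or sarcoplasmic reticulum, and ryanodine and IP3 receptors let it out again. Atp2a1 and Ryr1 are the pump and release channel of fast skeletal muscle fibres, where the reticulum meets the surface membrane at the triad. Atp2a2 is made in heart, slow muscle and, as its broadly expressed form, in most other cells. Sarcolipin, the product of Sln, and phospholamban, the product of Pln, bind the pump and lower its calcium transport. In mouse beige fat a cycle of calcium release through Ryr2 and uptake by the Atp2a2 pump has been described as a source of heat independent of Ucp1.

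The muscle pair of this pathway is introduced first by its promoter sequences, because Atp2a1 and Ryr1 moved together across the libraries, as did their triad partner Cacna1s, the voltage sensor that opens Ryr1. Itpr2, which did not follow them, is shown beside them. Each window runs from 250 bases before to 50 bases after the transcription start and comes from RefSeq (GRCm38.p6), which gave a promoter for 7 of the 10 genes, with none for Sln, Atp2a2 and Itpr1. The windows are chr7:126463024-126463323 on the minus strand for Atp2a1, chr7:29125102-29125401 on the minus strand for Ryr1, chr1:136052561-136052860 on the plus strand for Cacna1s and chr6:146502174-146502473 on the minus strand for Itpr2. Sequences read 5′ to 3′ on the strand of the gene, and capitals mark each E-box, the motif CANNTG to which basic helix-loop-helix factors such as the myogenic regulators bind.
Atp2a1: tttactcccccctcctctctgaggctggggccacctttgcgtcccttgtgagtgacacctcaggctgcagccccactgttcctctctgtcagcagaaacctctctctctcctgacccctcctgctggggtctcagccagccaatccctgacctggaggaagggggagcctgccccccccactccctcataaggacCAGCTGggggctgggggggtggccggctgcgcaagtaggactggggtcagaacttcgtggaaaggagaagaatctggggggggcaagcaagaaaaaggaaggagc
Ryr1: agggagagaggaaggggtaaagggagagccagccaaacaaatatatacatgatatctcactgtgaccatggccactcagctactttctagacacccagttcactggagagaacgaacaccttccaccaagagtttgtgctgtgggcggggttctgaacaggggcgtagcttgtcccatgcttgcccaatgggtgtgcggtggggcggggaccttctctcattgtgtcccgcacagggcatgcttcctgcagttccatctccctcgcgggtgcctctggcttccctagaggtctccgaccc
Cacna1s: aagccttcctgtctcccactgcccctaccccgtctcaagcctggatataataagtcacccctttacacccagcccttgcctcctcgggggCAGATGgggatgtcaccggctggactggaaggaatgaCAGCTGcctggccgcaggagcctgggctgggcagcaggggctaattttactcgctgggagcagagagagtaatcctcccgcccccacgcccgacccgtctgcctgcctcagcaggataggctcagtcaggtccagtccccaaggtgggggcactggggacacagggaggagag
Itpr2: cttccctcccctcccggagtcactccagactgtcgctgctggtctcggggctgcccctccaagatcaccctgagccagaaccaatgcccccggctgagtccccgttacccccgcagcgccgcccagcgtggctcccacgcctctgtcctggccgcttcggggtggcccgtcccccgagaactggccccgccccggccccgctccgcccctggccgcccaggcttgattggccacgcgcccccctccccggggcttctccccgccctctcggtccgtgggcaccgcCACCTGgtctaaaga
CANNTG reads the same on both strands, so 1 search covers both, and CAGCTG is 1 of its forms. Atp2a1 held a single E-box, CAGCTG, whose first base lay at -55 from the start. Cacna1s held CAGCTG at -123 and a further E-box, CAGATG, upstream of it. No CANNTG was in the Ryr1 window, and the E-box of Itpr2, CACCTG, began at base 36 downstream of the start. Among 32851 RefSeq windows of this length, 72.3% held CANNTG and 16.3% held CAGCTG, which by gene is 18.3% of 27025. Of the genes followed here with a window, 2 of 7 held CAGCTG (Atp2a1 and Pln). Of the 10 triad and reticulum genes with a window 5 did, among them Fkbp1a, which was not lower in AdKO. These matches describe the letters only.

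Total estimated counts per library ranged from 13956786 to 17538044. Levels are given as CPM, counts per 1000000 of the TMM-scaled library size, and differences as log2 fold changes of AdKO over control from the quasi-likelihood test of edgeR, called at a Benjamini-Hochberg adjusted p under 0.05 over 14767 tested genes. Adcy3 averaged 25.4 ± 4.36 CPM in AdKO and 154 ± 17.7 CPM in controls (SD, n = 3 each; log2 fold change -2.60, SE 0.17, edgeR adjusted p = 0.00146). Ucp1, the uncoupling protein that defines brown adipocytes, stood at 7161, 7111 and 7592 CPM in AdKO libraries 1, 2 and 3, against 5398, 6008 and 5850 CPM in control libraries 1, 2 and 3. Markers of skeletal muscle set the AdKO libraries apart from each other as well as from the controls. The 20 muscle markers together held 0.844%, 0.0635% and 0.00978% of the counts of AdKO libraries 1, 2 and 3, against 1.93%, 1.70% and 1.42% in control libraries 1, 2 and 3. For 15 of the 20 every AdKO library was below every control library, and none was at 0 in any library. The exact two-sided permutation test of this share gave p = 0.1, the smallest that 3 against 3 allows. Summed cardiac markers were at most 11.9 CPM in any library, with between 3 and 6 of the 9 genes at 0. In tissue RNA, fewer cells of a type and less RNA per cell cannot be told apart, and values of muscle markers are therefore given beside the results they move with. Library numbers are those of the labels and carry no order. The p-values set differences against the spread between these 6 libraries, which edgeR estimates partly from all tested genes.

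None of the 9 tested members passed the threshold in either direction in edgeR. Across all tested genes 0.0271% were called higher and 0.0339% lower, so few calls of any kind were made. At an unadjusted p under 0.05 there were 3 members, Atp2a2, Ryr1 and Sln, all lower in AdKO, where 7.6% of all tested genes were lower and 2.87% higher by that measure. The groups did not overlap for Atp2a1, Atp2a2, Sln and Ryr1, each lower in every AdKO library than in any control library, as were 10.8% of all tested genes. Ryr2 was higher in every AdKO library than in any control library, as were 7.63% of all tested genes. The median log2 fold change of the 9 members was -0.32, beside 0.01 over all tested genes.

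**Figure D1:**
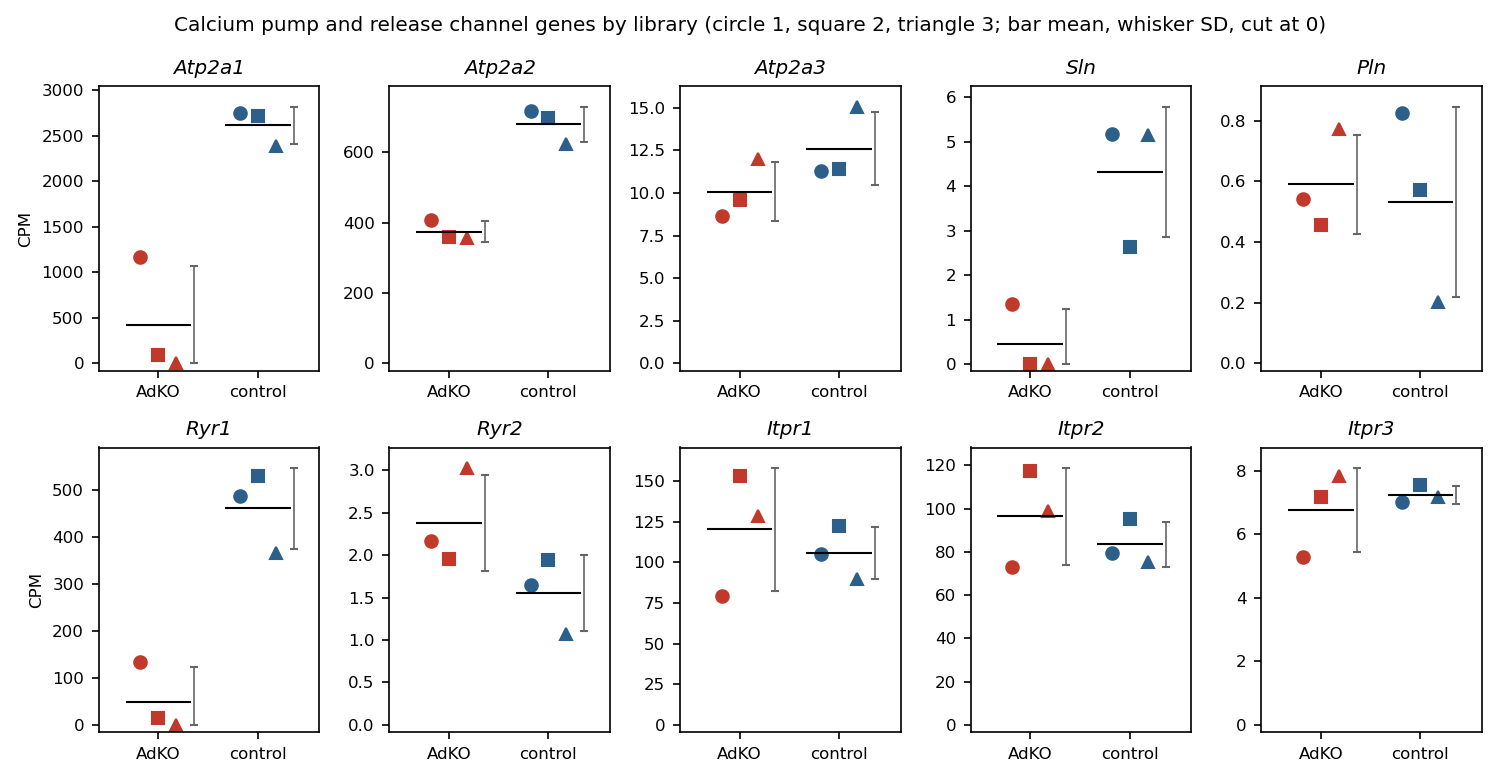
CPM of the 10 genes in each library, AdKO left and control right, with circles, squares and triangles for libraries 1, 2 and 3, a bar for the mean and a whisker for the SD (cut at 0); each panel has its own linear axis. Atp2a1 and Ryr1 were low and widely spread in AdKO, the 3 AdKO values of Atp2a2 lay together between 356 and 409 CPM, and the Itpr panels overlap.

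Among the pumps, Atp2a1, the fast muscle SERCA, differed most between libraries. It stood at 1171, 95.1 and 4.87 CPM in AdKO libraries 1, 2 and 3, against 2754, 2719 and 2384 CPM in control libraries 1, 2 and 3. The 3 controls were alike and the 3 AdKO libraries were not: the highest AdKO value was 241 times the lowest, against 1.16 times among controls. Its mean was 424 ± 649 CPM in AdKO and 2619 ± 204 CPM in controls (SD, n = 3 each). The log2 fold change was -2.63 (SE 1.39, edgeR adjusted p = 0.562). AdKO library 1, which held the most muscle marker counts of its group, also held the most Atp2a1. As a percent of the control mean, Atp2a1 was at 44.7, 3.63 and 0.186 in AdKO libraries 1, 2 and 3, where the summed muscle markers were at 54.5, 3.95 and 0.624. Without AdKO library 1 its log2 fold change was -5.71 and it was called (edgeR adjusted p = 0.00769), in a fit that called 5.35% of all tested genes lower.

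Atp2a2, the pump of heart, slow muscle and most non-muscle cells, was lower in AdKO by a similar amount in every library. It stood at 409, 359 and 356 CPM in AdKO libraries 1, 2 and 3, against 718, 699 and 624 CPM in control libraries 1, 2 and 3. The groups lay far apart and each was narrow, the highest value being 1.15 times the lowest in AdKO and in controls alike. The mean was 375 ± 29.5 CPM in AdKO and 680 ± 50.1 CPM in controls (SD, n = 3 each), or 55.0% of the control mean. The log2 fold change was -0.86 (SE 0.13) and did not pass the threshold in edgeR (adjusted p = 0.0741). It did pass with DESeq2 (-0.86, adjusted p = 1.50e-08), with limma-voom (adjusted p = 0.0382), and in edgeR with no low-count filter (adjusted p = 3.05e-05) or without AdKO library 1 (-0.93, adjusted p = 0.000711), while over all alternatives the adjusted p ranged from 1.50e-08 to 0.373. By those rules 1.87%, 0.183%, 2.45% and 5.35% of all tested genes were called lower. The fit with no low-count filter gave Atp2a1 an SE of 0.17 (edgeR adjusted p = 1.16e-52), against an SE of 1.39 with the filter. The AdKO values of Atp2a1 differed by 241 times, so that fit took little account of spread between libraries. Its call of Atp2a2 carries little weight.

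The Atp2a2 values of the AdKO libraries did not spread as the muscle markers did. As a percent of the control mean, Atp2a2 was at 60.1, 52.8 and 52.3 in AdKO libraries 1, 2 and 3, while the muscle markers were at 54.5, 3.95 and 0.624. A gene made both in muscle and in other cells need not follow the markers in proportion, so these values do not measure the part of muscle in Atp2a2. That part was not tested. Muscle of slow type, which makes Atp2a2, was followed by its 3 slow-fibre troponins Tnnc1, Tnnt1 and Tnni1. Their summed level was 324, 3.98 and 0.950 CPM in AdKO libraries 1, 2 and 3, against 404, 322 and 264 CPM in control libraries 1, 2 and 3. AdKO library 1 was at 98.0% of the control mean for the slow troponins and at 60.1% for Atp2a2. Each of the 3 troponins overlapped between the groups. Myl2, a myosin light chain gene of slow muscle and heart, was instead lower in every AdKO library than in any control library (log2 fold change -1.82, SE 1.52, edgeR adjusted p = 0.731). The muscle markers Ttn, Neb, Acta1 and Ckm were at 45.9%, 37.2%, 64.3% and 71.4% in that library. Levels in AdKO library 1 also ran with transcript length, as given below, and the part of length here was not tested. With a muscle marker score as a covariate the log2 fold change of Atp2a2 was -0.73 (edgeR adjusted p = 0.219), against -0.19 for Atp2a1 and -0.88 for Ryr1. That score is a mean of log2 CPM and cannot fully fit a gene made both in muscle and in other cells. The -0.73 therefore does not measure a difference outside muscle. Smooth muscle markers, whose cells also use Atp2a2, summed to 78.1, 60.4 and 59.3 CPM in AdKO libraries 1, 2 and 3, against 85.9, 92.1 and 95.1 CPM in control libraries 1, 2 and 3. Fibroblast markers summed to 382, 280 and 238 CPM in AdKO libraries 1, 2 and 3, against 617, 415 and 565 CPM in control libraries 1, 2 and 3, or 56.3% of the control mean. Brown adipocyte markers summed to 125% of the control mean in AdKO, and 4 of the 10 were higher in every AdKO library than in any control library. Most of that sum was Ucp1, which averaged 7288 CPM in AdKO and 5752 CPM in controls. The part of these cell types in the Atp2a2 difference was not tested.

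**Figure D2:**
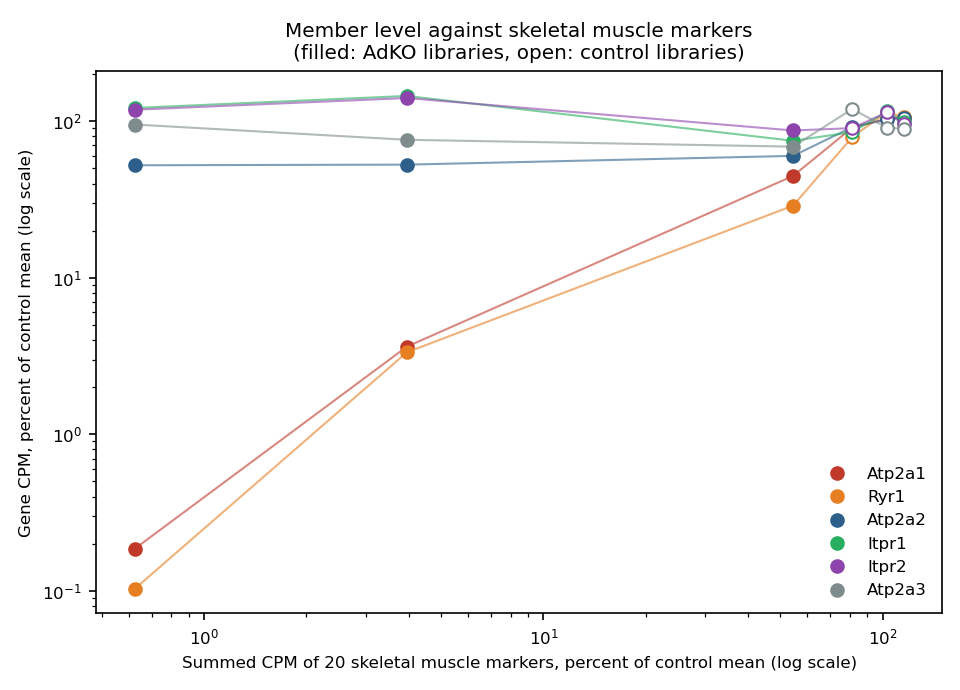
Level of 6 genes, as percent of their control mean, against the summed CPM of 20 skeletal muscle markers, also as percent of the control mean (both axes log scale; filled points AdKO libraries, open points control libraries, lines join the 6 libraries of a gene). Atp2a1 and Ryr1 run down with the markers to 0.186% and 0.103% in AdKO library 3, Atp2a2 lies between 52.3% and 60.1% in the 3 AdKO libraries, and Itpr1, Itpr2 and Atp2a3 stay near the controls. The part of muscle in the Atp2a2 values was not tested.

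Atp2a3, the pump known from blood, endothelial and epithelial cells, was low in every library. It stood at 8.66, 9.58 and 12.0 CPM in AdKO libraries 1, 2 and 3, against 11.3, 11.4 and 15.1 CPM in control libraries 1, 2 and 3. The groups overlapped, and the log2 fold change was -0.32 (SE 0.19, edgeR adjusted p = 0.610). Markers of 2 of those sources overlapped between the groups as well. The 6 endothelial markers summed to between 588 and 754 CPM in AdKO and between 591 and 749 CPM in controls. The 8 lymphocyte and platelet markers summed to between 7.11 and 9.48 CPM in AdKO and between 8.24 and 9.34 CPM in controls.

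The makeup of the SERCA counts differed between AdKO libraries. Atp2a2 took 25.7%, 77.4% and 95.5% of the SERCA counts in AdKO libraries 1, 2 and 3, against 20.6%, 20.4% and 20.6% in control libraries 1, 2 and 3. The 95% Wilson intervals of the 3 controls overlapped, the widest interval in any library reaching 0.971 percentage points to a side, and every AdKO library was above them. The mean share was 66.2% ± 36.2 in AdKO and 20.5% ± 0.14 in controls (SD, n = 3 each), where an exact two-sided permutation test gave p = 0.1, the smallest possible. These shares are of counts and are not divided by transcript length.

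**Figure D3:**
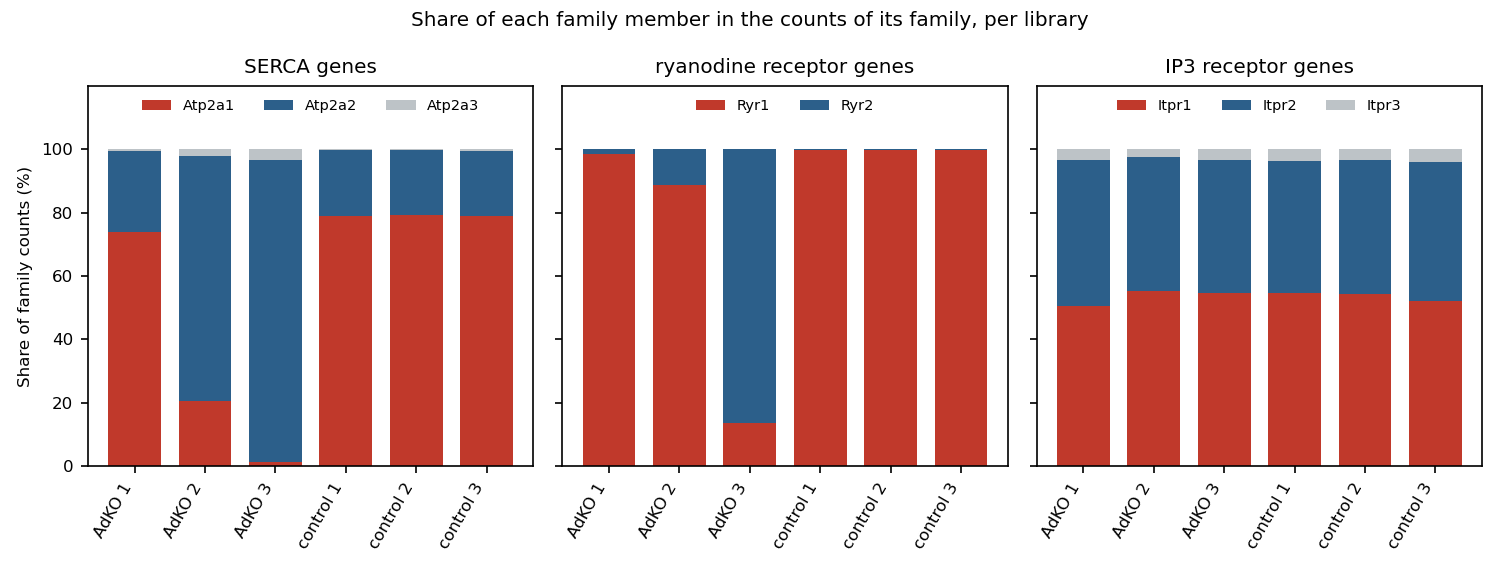
Share of each gene in the counts of its family, in percent, for the AdKO libraries (left 3 bars of each panel) and the control libraries (right 3 bars). The Atp2a2 share of SERCA counts is between 25.7% and 95.5% in AdKO and about 20.5% in controls, the Ryr2 share of ryanodine receptor counts reaches 86.4% in AdKO library 3, and the IP3 receptor bars are much alike in all 6 libraries.

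Both small regulators of the pump had low counts, Pln in every library and Sln in AdKO. Sln had 20, 0 and 0 counts in AdKO libraries 1, 2 and 3, against 88, 46 and 77 counts in control libraries 1, 2 and 3. In CPM these were 1.35, 0 and 0 in AdKO, against 5.18, 2.64 and 5.16 in controls, where 3 counts correspond to between 0.172 and 0.203 CPM in a library. All AdKO libraries were thus below all controls, and the 0 counts of AdKO libraries 2 and 3 allow up to 0.196 and 0.178 CPM. The log2 fold change of Sln was -3.28 (SE 1.03, edgeR adjusted p = 0.318). Without AdKO library 1 it was called (edgeR adjusted p = 0.000436), its fitted value of -9.14 then resting on AdKO libraries at 0 and on the prior count. Its only AdKO library with counts was the one with the most muscle marker counts. Pln had 8, 7 and 13 counts in AdKO libraries 1, 2 and 3, against 14, 10 and 3 counts in control libraries 1, 2 and 3, overlapped between the groups and was too low to be tested. Floors and intervals cover counting error only.

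Ryr1, the skeletal muscle release channel, followed Atp2a1. It stood at 133, 15.4 and 0.475 CPM in AdKO libraries 1, 2 and 3, against 487, 530 and 365 CPM in control libraries 1, 2 and 3. AdKO library 3 held 8 counts of Ryr1, while the lowest control held 5441. The means were 49.6 ± 72.6 CPM in AdKO and 461 ± 85.7 CPM in controls (SD, n = 3 each), and the log2 fold change was -3.22 (SE 1.34, edgeR adjusted p = 0.460). The highest AdKO value was 280 times the lowest, against 1.45 times among controls. Without AdKO library 1 the log2 fold change of Ryr1 was -5.87 (edgeR adjusted p = 0.00347).

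Set against Ttn, the giant sarcomere protein of muscle, the Atp2a1 levels of the groups fell in the same range. Atp2a1 CPM came to 149%, 172% and 161% of Ttn CPM in AdKO libraries 1, 2 and 3, against 130%, 154% and 193% in control libraries 1, 2 and 3. That is 161% ± 11.3 in AdKO and 159% ± 32.1 in controls (SD, n = 3 each), although Ttn itself ranged from 3.03 to 784 CPM in AdKO and from 1233 to 2120 CPM in controls. Ryr1 came to 20.2% ± 6.67 of Ttn CPM in AdKO and 27.5% ± 3.91 in controls (SD, n = 3 each), with overlapping ranges. Cacna1s came to 7.35% ± 2.14 of Ttn CPM in AdKO and 7.45% ± 0.80 in controls (SD, n = 3 each). Atp2a2 did not keep such a ratio, being at 52.1%, 650% and 11749% of Ttn CPM in AdKO libraries 1, 2 and 3, against 33.9%, 39.5% and 50.6% in control libraries 1, 2 and 3. Ratios in AdKO library 3 rest on 82 counts of Atp2a1, 8 of Ryr1 and 51 of Ttn. Long transcripts in general were lower in AdKO library 1, as given below, and the part of transcript length in these ratios was not tested. The 20 muscle markers did not fall alike in AdKO library 3, where their sum was at 0.624% of the control mean and Atp2a1 at 0.186%. Ttn, Acta1 and Ckm were at 0.177%, 0.192% and 0.196% there, Tnnt1 and Tnni1 at 0.125% and 0.0526%, and Neb and Tnnc1 at 0.456% and 0.954%. Which markers set the sum in that library was not tested. Against this sum, Atp2a1 was lower in AdKO library 3, at 47.8 CPM per 1000 marker CPM, than in AdKO libraries 1 and 2, at 132 and 147, and in the controls, at 146, 161 and 179. Ryr1 was at 14.9, 23.8 and 4.66 CPM per 1000 marker CPM in AdKO libraries 1, 2 and 3, against 25.9, 31.4 and 27.4 in control libraries 1, 2 and 3, so every AdKO library was below every control library on that scale.

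Ryr2, the channel of heart and brain that has been linked to calcium cycling in fat, was scarce in brown fat of both groups. It had 32, 30 and 51 counts in AdKO libraries 1, 2 and 3, against 28, 34 and 16 counts in control libraries 1, 2 and 3. In CPM these were 2.17, 1.96 and 3.03 in AdKO, against 1.65, 1.95 and 1.07 in controls. The groups were separated by the narrow gap between 1.96 and 1.95 CPM, and the log2 fold change was 0.61 (SE 0.34, edgeR adjusted p = 0.577). Ryr2 made up 1.60%, 11.3% and 86.4% of the ryanodine receptor counts in AdKO libraries 1, 2 and 3, against 0.337%, 0.366% and 0.293% in control libraries 1, 2 and 3. The 86.4% of AdKO library 3 rests on 59 counts in all, with a 95% Wilson interval of 75.5% to 93.0%. Ryr1 had 1965, 236 and 8 counts in AdKO libraries 1, 2 and 3, while Ryr2 had at most 51 counts in any library.

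**Figure D4:**
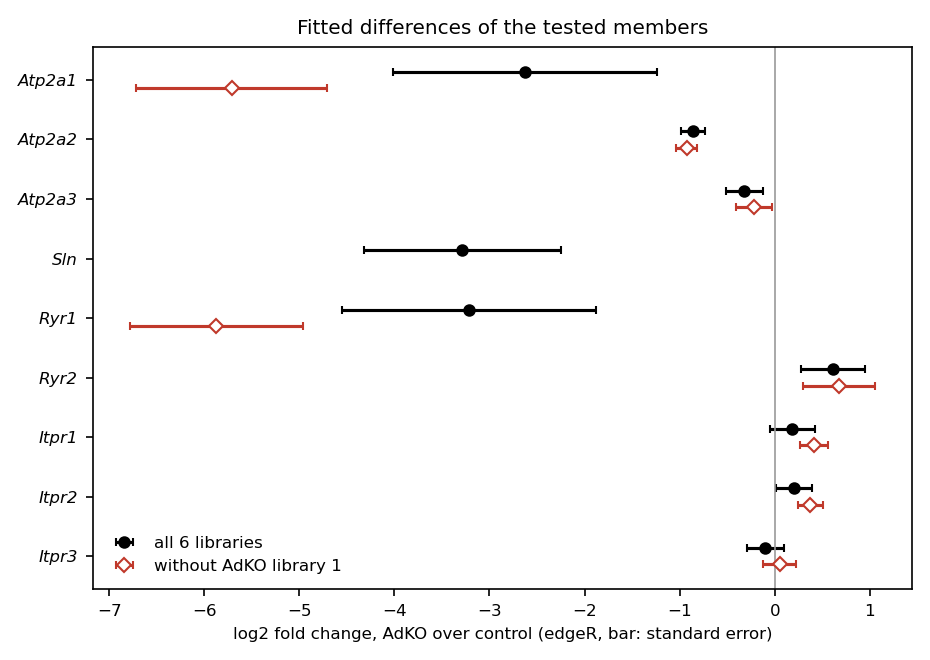
Log2 fold changes of AdKO over control from edgeR with standard errors, for the 9 tested genes with all 6 libraries (filled circles) and without AdKO library 1 (open diamonds; none for Sln, whose other 2 AdKO libraries are at 0). Atp2a2 has a narrow bar at -0.86 and -0.93, whereas Atp2a1 and Ryr1 have wide bars and move to -5.71 and -5.87.

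The IP3 receptors, the release channels of most non-muscle cells, showed no difference past the threshold. Itpr1 stood at 79.3, 153 and 128 CPM in AdKO libraries 1, 2 and 3, against 105, 122 and 90.0 CPM in control libraries 1, 2 and 3 (log2 fold change 0.19, SE 0.24, edgeR adjusted p = 0.842). Itpr2 stood at 72.8, 117 and 98.9 CPM in AdKO libraries 1, 2 and 3, against 79.7, 95.4 and 75.4 CPM in control libraries 1, 2 and 3 (log2 fold change 0.21, SE 0.19, edgeR adjusted p = 0.760). For both, AdKO library 1 was the lowest of the 6 libraries, and AdKO libraries 2 and 3 were above every control library. Itpr3, the least abundant, averaged 6.76 ± 1.33 CPM in AdKO and 7.25 ± 0.28 CPM in controls (SD, n = 3 each; log2 fold change -0.10, SE 0.20, edgeR adjusted p = 0.907), with AdKO library 1 again the lowest. Without AdKO library 1 the log2 fold change was 0.41 for Itpr1 (edgeR adjusted p = 0.172) and 0.37 for Itpr2 (edgeR adjusted p = 0.180).

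Long transcripts in general were lower in AdKO library 1, and all 3 IP3 receptor transcripts are long. The 10% of genes with the longest transcripts, 6777 bases or more, had a median log2 deviation from the control mean of -0.40 in AdKO library 1, 0.08 in AdKO library 2 and -0.03 in AdKO library 3. The 10% with the shortest transcripts had medians of 0.49, -0.08 and 0.06 in AdKO libraries 1, 2 and 3. The longest coding transcripts of Itpr1, Itpr2, Itpr3, Ryr1 and Ryr2 are all of that length or more, and the part of length in their values was not tested. A ratio within the IP3 family was steadier. Itpr1 took 50.4%, 55.2% and 54.6% of the IP3 receptor counts in AdKO libraries 1, 2 and 3, against 54.7%, 54.3% and 52.2% in control libraries 1, 2 and 3. The means were 53.4% ± 2.62 in AdKO and 53.7% ± 1.38 in controls (SD, n = 3 each), a difference within the spread between libraries (exact two-sided permutation p = 0.9).

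Per kilobase of the longest coding transcript, the order of levels in controls was Atp2a1, Atp2a2, Ryr1, Itpr1, Itpr2, Sln, Atp2a3, Itpr3, Pln and Ryr2. Only Sln with Atp2a3, and Pln with Ryr2, had overlapping control ranges among neighbours in that order. In AdKO libraries 2 and 3 Atp2a2 came first. It was at 91.1, 80.1 and 79.3 CPM per kilobase in AdKO libraries 1, 2 and 3, against 160, 156 and 139 in control libraries 1, 2 and 3. Atp2a1 was at 337, 27.3 and 1.40 CPM per kilobase in AdKO libraries 1, 2 and 3, against 792, 782 and 686 in control libraries 1, 2 and 3. Itpr1 was at 8.03, 15.5 and 13.0 CPM per kilobase in AdKO libraries 1, 2 and 3, above Ryr1 in libraries 2 and 3, where Ryr1 was at 1.00 and 0.0309. In control libraries 1, 2 and 3 Itpr1 was at 10.6, 12.4 and 9.12 CPM per kilobase and Ryr1 at 31.7, 34.5 and 23.7. In AdKO library 3, which held the fewest muscle marker counts, the order began with Atp2a2, Itpr1 and Itpr2, and Atp2a1 ranked 5. The summed level of the 10 genes was 1883, 760 and 612 CPM in AdKO libraries 1, 2 and 3, against 4170, 4190 and 3567 CPM in control libraries 1, 2 and 3 (exact two-sided permutation p = 0.1, the smallest possible).

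The genes whose log2 CPM ran closest to each member over the 6 libraries were listed from 9429 genes with a mean of at least 5 CPM, as a description in which all genes share the same 6 libraries. For Atp2a1 these were Nrap, Mybpc1 and Trim63, all known from striated muscle (Pearson r of 0.9997, 0.9995 and 0.9991 over 6 libraries). For Ryr1 they were Scn4a, the muscle sodium channel, Cacna1s and Myh4, a fast myosin heavy chain (0.9996, 0.9994 and 0.9993). For Atp2a2 they were Anapc5, and Ppp1r12b and Svil, which are also known from muscle (0.9966, 0.9952 and 0.9944). Their means were 82.2, 23.6 and 14.2 CPM in AdKO, against 111, 75.3 and 48.6 CPM in controls. The part of muscle in these values was not tested. Anapc5, a subunit of the anaphase-promoting complex, lies 285234 bases from Atp2a2 on chromosome 5. Within 500000 bases of Atp2a2 there were 20 tested genes, and their median log2 fold change was -0.02. In every AdKO library 3 (Cux2, Myl2 and Anapc5) were lower and 2 higher than in any control library, shares near the 10.8% and 7.63% of all tested genes. Trim35, Tmem63a and Cpe ran closest to Sln, and Pacs1, Fam83h and Disp1 to Atp2a3. Gss, Selenoo and Ndfip2 ran closest to Ryr2, Gnpat, Cep192 and Bcl2l13 to Itpr1, Zkscan5, Tmed8 and Ank to Itpr2, and Npc1, Rptor and Uhrf1bp1 to Itpr3. No muscle sarcomere gene was among the 3 nearest of the IP3 receptors.

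Around these genes, 72 further genes of calcium handling in 7 lists were examined, of which 64 were tested. None was called in edgeR, and DESeq2 called 4 lower (Srl, Jph1, Atp2b3 and Plcd4), where it called 1.87% of all tested genes lower. At an unadjusted p under 0.05 in edgeR there were 16, beside 7.6% lower and 2.87% higher over all tested genes. In 23 every AdKO library was below every control library, beside 10.8% of all tested genes. In 5 every AdKO library was above every control library, a share near the 7.63% of all tested genes. Their median log2 fold change was -0.05, beside 0.01 over all tested genes. The largest group of lower ones were partners of Ryr1 at the triad. In that list of 18 genes 17 were tested, 15 had a negative log2 fold change and the median log2 fold change was -2.14. In 14 of the 17 every AdKO library was below every control library, as in 10.8% of all tested genes. The median deviation from the control mean was -0.80, -3.57 and -4.99 on the log2 scale in AdKO libraries 1, 2 and 3, beside -0.61, -4.70 and -8.75 for the 20 muscle markers. With the muscle score as a covariate the median log2 fold change of the triad list was -0.37, and no gene of it was called, as without the covariate. The score itself was 1.54, -2.56 and -5.67 in AdKO libraries 1, 2 and 3, against 1.97 to 2.48 in controls. That fit therefore cannot fully part genotype from the score. Without AdKO library 1, 15 of the 17 tested triad genes were called lower, where 5.35% of all tested genes were.

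Within the triad list Srl, which encodes the luminal calcium-binding protein sarcalumenin, had the smallest p. It stood at 96.7, 52.2 and 42.2 CPM in AdKO libraries 1, 2 and 3, against 252, 215 and 168 CPM in control libraries 1, 2 and 3 (log2 fold change -1.73, SE 0.31, edgeR adjusted p = 0.120). That is 45.7%, 24.7% and 19.9% of its control mean, a narrower range than that of the muscle markers and a wider one than that of Atp2a2, the highest AdKO value being 2.29 times the lowest. DESeq2 called Srl (adjusted p = 6.16e-08), and so did edgeR without AdKO library 1 (-2.16, adjusted p = 6.81e-05). Jph1, a junctophilin that tethers the reticulum to the surface membrane, had a log2 fold change of -2.21 (SE 0.51, edgeR adjusted p = 0.197) and was called in DESeq2 (adjusted p = 0.0404). Cacna2d1, an auxiliary calcium channel subunit, was at -2.31 (SE 0.56), and Asph, whose locus also makes junctin, at -0.58 (SE 0.19). Casq1, the calcium buffer of fast muscle reticulum, was at 115, 6.78 and 0.653 CPM in AdKO libraries 1, 2 and 3, against 250, 197 and 173 CPM in control libraries 1, 2 and 3, and was named after its values were seen. Fkbp1a and Tmem38b, which many other cell types make, were the 2 tested triad genes with positive values and were likewise named after these were seen, with log2 fold changes of 0.19 and 0.06.

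**Figure D5:**
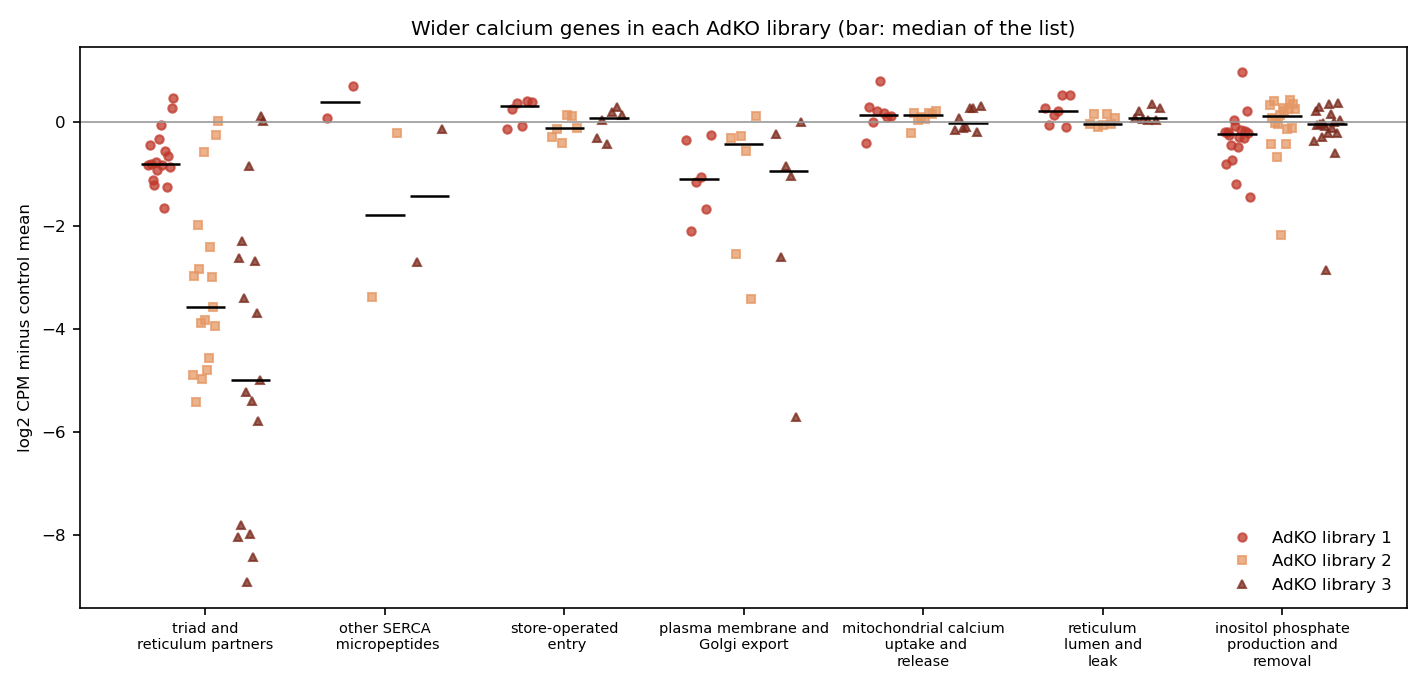
Difference of each tested gene of 7 further calcium lists from its control mean, on the log2 CPM scale, in AdKO libraries 1 (circles), 2 (squares) and 3 (triangles), with a bar for the median of the list; 0 is the control mean. Triad genes fall to medians of -0.80, -3.57 and -4.99 in the 3 libraries, while medians of the mitochondrial, lumen and inositol phosphate lists lie between -0.23 and 0.23. Single genes of these lists lie further off, such as Plcd4 at -1.20, -2.17 and -2.86 and Smdt1 at 0.80 in AdKO library 1.

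Genes of calcium export at the plasma membrane and Golgi were also mostly lower. None was called in edgeR with all libraries, Atp2b3 was called in DESeq2 (adjusted p = 0.0199), and Atp2b3 and Slc8a3 were called in edgeR without AdKO library 1 (adjusted p = 0.0126 and 0.000379). All 6 tested genes had a negative log2 fold change, the median was -0.84, and 5 were lower in every AdKO library than in any control library, as were 10.8% of all tested genes. With the muscle score as a covariate the median was -0.96. Atp2b3, a plasma membrane calcium pump, stood at 0.135, 0.0652 and 0.0594 CPM in AdKO libraries 1, 2 and 3, all at or below 2 counts, against 1.00, 1.32 and 0.737 CPM in control libraries 1, 2 and 3 (edgeR adjusted p = 0.0919). Slc8a3, a sodium-calcium exchanger found in muscle and brain, had a log2 fold change of -2.95 (SE 0.75), and Slc8a1, the cardiac exchanger, -0.97 (SE 0.35). Atp2b4, a further plasma membrane pump, stood at 8.26, 15.3 and 10.2 CPM in AdKO libraries 1, 2 and 3, against 20.4, 16.2 and 19.0 CPM in control libraries 1, 2 and 3 (log2 fold change -0.72, SE 0.23).

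The medians of the other lists, apart from the 2 tested micropeptides, lay near that of all genes. Of the store-operated entry genes, the reticulum calcium sensor Stim1 was the only non-overlapping one of 6, at 128, 114 and 114 CPM in AdKO libraries 1, 2 and 3, against 144, 143 and 133 CPM in control libraries 1, 2 and 3 (log2 fold change -0.24, SE 0.12). The channel genes Orai3 and Orai1 were at 0.28 (SE 0.14) and -0.12 (SE 0.26), and Saraf, which restrains store-operated entry, at 0.15 (SE 0.15). Of the 8 tested mitochondrial calcium genes 4 were higher and 1 was lower in every AdKO library than in any control library, beside 7.63% higher and 10.8% lower over all tested genes, and the median log2 fold change was 0.13. Summed brown adipocyte markers, mostly Ucp1, were also higher in every AdKO library, at 10880 to 11725 CPM in AdKO and 8565 to 9667 CPM in controls. Singly, 4 of the 10 markers were higher in every AdKO library. The part of brown adipocytes in these values was not tested. The uniporter pore gene Mcu was the lower one, at -0.25 (SE 0.13). Its essential regulator Smdt1 was at 0.41 (SE 0.19), and Mcur1 and Letm1 were each at 0.22 (SE 0.12). Smdt1 stood at 174%, 104% and 121% of its control mean in AdKO libraries 1, 2 and 3. Without AdKO library 1, Smdt1, Mcur1 and Letm1 were at 0.18, 0.24 and 0.27. In the reticulum lumen and leak list Tmbim6 was at 0.35 (SE 0.13) and Tmco1, a leak channel gene, at 0.31 (SE 0.14), while the chaperones Calr and Canx were at 0.12 and 0.11 (SE 0.13 each). Tmbim6 and Tmco1 were at 0.26 and 0.19 without AdKO library 1. Among 18 tested genes for production and removal of inositol phosphates the median was -0.04. The phospholipase Plcd4 averaged 2.05 ± 1.26 CPM in AdKO and 8.41 ± 2.77 CPM in controls (SD, n = 3 each; log2 fold change -2.04, SE 0.45, edgeR adjusted p = 0.171; DESeq2 adjusted p = 0.000233). Plcg2, Ahcyl1 and Plcg1 were at -0.61 (SE 0.34), 0.19 (SE 0.18) and -0.15 (SE 0.14). Of the further SERCA micropeptides, Mrln, the muscle micropeptide myoregulin, was at -1.40 (SE 0.90) and 1810037I17Rik at 0.19 (SE 0.25), with overlapping groups, and the other 2 were too low to be tested.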

How the data were processed

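The authors deposited estimated counts for each gene, which can be fractional and carry no scaling between libraries, judging from the values. StringTie, Salmon and edgeR, and the build GRCm38, are named in the submitters' processing notes. Their versions, settings and annotation, and whether counting used strand, are not given in the sources; reads of genes that overlap on opposite strands may be mixed. Where the design text of the series differs from the sample labels on depot, replicate number and cold, the labels were followed. Symbols, positions and transcript lengths came from GENCODE on GRCm38 (54131 of 54385 identifiers matched).

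Estimated counts were rounded, genes passing filterByExpr (minimum count 10, minimum total 15) were tested with edgeR 4.0.16 in R 4.3.3 (TMM, quasi-likelihood, two-sided, genotype as the only term), and p-values were adjusted over all tested genes. Standard errors are the log2 fold change over the root of F. Shares carry 95% Wilson intervals, and single values per library were compared by exact permutation. Scripts were tested on simulated counts. A chi-square comparison found more than counting noise between all libraries within each group, and none was taken as a copy. Members, gene lists and tests were chosen with earlier results of these data known. Genes named were all members, Adcy3, Ucp1, up to 4 genes per list with the smallest p, and the 3 genes nearest each tested member; others are described where they show a muscle or list value. Alternatives were other scaling factors, DESeq2 1.42.0, limma-voom (limma 3.58.1), other low-count filters, a replicate block, a muscle score covariate and each library left out. Levels per length and shares per length used the longest coding transcript, chosen after seeing the data.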

Additional observations from a re-analysis of the deposited data

How the results depend on the processing

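The count of genes called higher was 4, and 31 with DESeq2, 111 without a low-count filter, 2 with the replicate block, 12 with the muscle score covariate and between 3 and 45 with a library left out. The count called lower was 5, and 276 with DESeq2, 27 with limma-voom, 782 without the filter, 2 with the replicate block, 12 with the covariate and between 1 and 812 with a library left out; the 45 and 812 came without AdKO library 1. Members called numbered 0, with 1 in DESeq2, 1 in limma-voom and 4 without the filter (Atp2a2, Ryr1, Atp2a1 and Sln), and between 0 and 4 with a library left out. Without the filter the SE of Ryr1 was 0.19, against 1.34 with it, so calls of that fit take little account of spread between libraries. Wider calcium genes called numbered 0, with 4 in DESeq2, 19 without the filter and between 0 and 19 with a library left out. Directions turned, without a call, for Itpr1 (-0.30) and Itpr2 (-0.10) with the covariate. With a library left out Itpr1 ranged from -0.025 (without AdKO library 2) to 0.41 on the log2 scale, Itpr3 from -0.22 to 0.052 (without AdKO library 1), and the difference in the Itpr1 share from -1.24 to 1.16 percentage points. The cause of these changes was not tested. Atp2a1, Atp2a2, Atp2a3, Sln, Ryr1 and Ryr2 kept their sign in the 14 alternatives run, Atp2a1 between -5.71 and -0.19, Atp2a2 between -0.95 and -0.73, Sln between -9.14 and -0.93 and Ryr1 between -5.87 and -0.88. With limma-voom Atp2a1, Ryr1 and Sln were at -5.02, -5.59 and -5.22, and with the replicate block at -4.89, -5.09 and -3.88, uncalled in both. Same-numbered libraries correlated at 0.07, 0.11 and 0.05 in their deviations from the group means, so the pairing rests on a number only. Every library correlated best with its own number, a hint from the data and not the design. With the replicate block Atp2a2 was at -0.86 (edgeR adjusted p = 0.127). Low counts limit Sln, Pln and Ryr2, and Ryr1 in AdKO library 3.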
